A study of Caenorhabditis elegans with 2 samples.

Results

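The 8 genes dod-17, dod-21, dod-22, dod-23, dod-24, irg-4, irg-5 and cld-1 of Caenorhabditis elegans are described here by the peaks of the transcription factor ELT-2 around them. They were chosen by name, with the peaks of some of them already known from these data, out of 19973 protein-coding genes on the nuclear chromosomes. The peaks given for them were chosen by position, as those with a summit inside the gene or within 5 kb of it. Peak position, signal and rank are therefore descriptions, with no test. The annotation calls 7 of the 8 products CUB-like domain-containing proteins. The product of dod-23 is annotated only as Downstream Of DAF-16, so the label CUB-like did not hold for that gene.

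Chromatin bound by tagged ELT-2 was immunoprecipitated with an antibody to GFP and sequenced (ChIP-seq) in 2 biological replicates of 1 group. The worms were hermaphrodites of strain OP56, genotype unc-119(ed3) III; wgIs56, in which ELT-2 carries GFP and FLAG at its C-terminus and is supplied by an integrated transgene. They were L1 larvae, the first larval stage, taken 6 h after synchronization by starvation. Whole animals were used, so the peaks do not show in which cell ELT-2 was bound, and with 1 group there is no other condition to compare. Control reads were not analysed here.

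ELT-2 is a zinc finger factor of the GATA family and the factor that sustains transcription in the differentiated worm intestine. GATA factors recognize short sequences built on the letters GATA, and TGATAA is the form most often linked to ELT-2. The dod genes (downstream of DAF-16) were named for regulation, in either direction, by DAF-16, the FOXO factor of insulin signalling. The irg genes (infection response gene) were named for induction by pathogens. A CUB-like domain is a short domain of secreted or membrane proteins in nematodes whose biochemical role is not known. Several of these genes, among them dod-22, dod-24, irg-4 and irg-5, are used as readouts of intestinal immune responses.

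The 4 peak lists on genome build ce11 were used. Those peaks that passed the irreproducible discovery rate procedure, which compares the ranks of peaks, are called thresholded. They number 5443, their signals running from 142 to 6412 about a median of 250.4. The relaxed lists hold background on purpose and have 16833 peaks for the pooled replicates, 17177 for replicate 1 and 18929 for replicate 2. Signal is the authors' value for each peak and is used only to rank peaks within a list, rank 1 being the strongest. A promoter is 1000 bp upstream to 200 bp downstream of any 5′ end of a gene, and a gene with a thresholded summit there is called bound. All positions are on ce11.

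All 8 genes had a thresholded summit inside them or within 5 kb, as did 45.8% of all protein-coding genes. They all had one by the same measure in the pooled list (75.6% of all genes), in replicate 1 (77.2%) and in replicate 2 (79.5%). The thresholded peaks near the genes recur in the pooled list with the same position, signal and rank. The pooled list is therefore not separate evidence for them. In the promoter window, 6 of 8 were bound, against 17.0% of all protein-coding genes. The bound genes were dod-17, dod-21, dod-22, cld-1, irg-4 and dod-23, and those not bound were dod-24 and irg-5. Because the genes were chosen with such results known, nothing is read from the difference in shares. When each summit was given only to the nearest 5′ end within 1000 bp, 5 of 8 kept a peak, against 15.1% of all genes, and cld-1 was the gene lost. In the relaxed lists a promoter summit was found for 7 of 8 in the pooled list (33.8% of all genes), for 6 of 8 in replicate 1 (34.2%) and for 8 of 8 in replicate 2 (35.4%).

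The genes lie at 4 places in the genome. A run of 5 of them, cld-1, dod-21, dod-24, dod-22 and dod-17, spans IV 12935011 to 12978343, irg-4 lies apart on chromosome IV at 12435833 to 12438236, irg-5 on V at 13737010 to 13738474 and dod-23 on II at 8398161 to 8399164. Around them lay 13 distinct thresholded peaks. The summit farthest from its gene but inside the 5 kb limit lay 4826 bp from dod-22, and the nearest one outside the limit lay 6065 bp from irg-5. Of these, 10 were in the promoter of some protein-coding gene, 5 in the promoter of a described gene and 3 in intergenic sequence. The promoters of more than 1 gene held 1 of the 13 (7.69%), near the 11.7% of all thresholded peaks.

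The strongest peak stood between cld-1 and dod-21, which are transcribed away from each other and whose 5′ ends are 467 bp apart. cld-1, named for its CUB-like domain, occupies IV 12935011 to 12936271 on the minus strand, and dod-21 occupies IV 12936738 to 12937988 on the plus strand. The peak covered 12936343 to 12936771 with its summit at 12936563, 292 bp upstream of cld-1 and 175 bp upstream of dod-21. Its signal was 2427 in the thresholded list, rank 10 of 5443. In replicate 1 the signal was 1268, rank 11, and in replicate 2 it was 1157, rank 10. The summit was at the same base in all 4 lists, of which the thresholded and pooled ones hold the same record. The sequence around it is shown by a rule that covered the promoter peak of each bound gene. It is the plus strand 100 bp either side of the summit, chrIV:12936463-12936663, with TGATAA (or TTATCA, the same hexamer on the other strand) in capitals.
cld-1 and dod-21: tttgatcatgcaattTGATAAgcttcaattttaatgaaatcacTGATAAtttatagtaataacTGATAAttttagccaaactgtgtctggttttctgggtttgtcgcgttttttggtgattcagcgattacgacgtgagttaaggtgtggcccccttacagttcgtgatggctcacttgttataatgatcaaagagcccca
It holds 3 copies of TGATAA, all on the plus strand, starting at positions 16, 44 and 64 counted from the left end. The copy nearest to the summit ends 32 bp away. Within 150 bp of the summit there were 6 copies.

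This peak lies in a gap between repeated sequence. A search made after the values were seen found an inverted repeat, whose left arm runs from IV 12932813 to 12936247 and whose right arm runs from 12936752 to 12940186. The arms are 3435 bp long and differ at 4 bases, an identity of 99.9%, and nearly all of cld-1 lies in the left arm and nearly all of dod-21 in the right. Between them are 504 bp of spacer, and the summit is 316 bp from the left arm and 189 bp from the right. Of the bases of the peak, 20 fall in the right arm. No summit of any of the 4 lists lay in either arm. Of the 1152 words of 50 bases in the promoter window of each of cld-1 and dod-21, 599 (52.0%) occur more than once in the genome, while all 13 peaks held 0 such words. How reads that map to more than 1 place were treated is not given in the sources used here, so the part of the repeat in the lack of summits in the arms was not tested.

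dod-24, another immune readout gene, lies 4616 bp from dod-21 between 5′ ends, at IV 12940106 to 12941354 on the minus strand. It had no thresholded promoter peak. The pooled list had a summit 105 bp upstream with a signal of 58.9, rank 16780 of 16833. Replicate 1 had none there, and replicate 2 had a summit 91 bp upstream with a signal of 45.5, rank 7864. The thresholded peak that brought dod-24 within 5 kb was the one shared by cld-1 and dod-21, 3543 bp from the gene. The sequence at the weak pooled summit, chrIV:12941359-12941559 on the plus strand, was chosen after its value was seen, to set beside the strong peak of its neighbours.
dod-24: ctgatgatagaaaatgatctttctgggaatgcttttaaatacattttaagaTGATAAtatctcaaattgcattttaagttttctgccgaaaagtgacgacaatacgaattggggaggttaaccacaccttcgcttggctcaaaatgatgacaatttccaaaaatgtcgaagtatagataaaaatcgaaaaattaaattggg
It too holds a TGATAA, at position 52, where the pooled peak ranked near the end of its list.

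**Figure D1:**
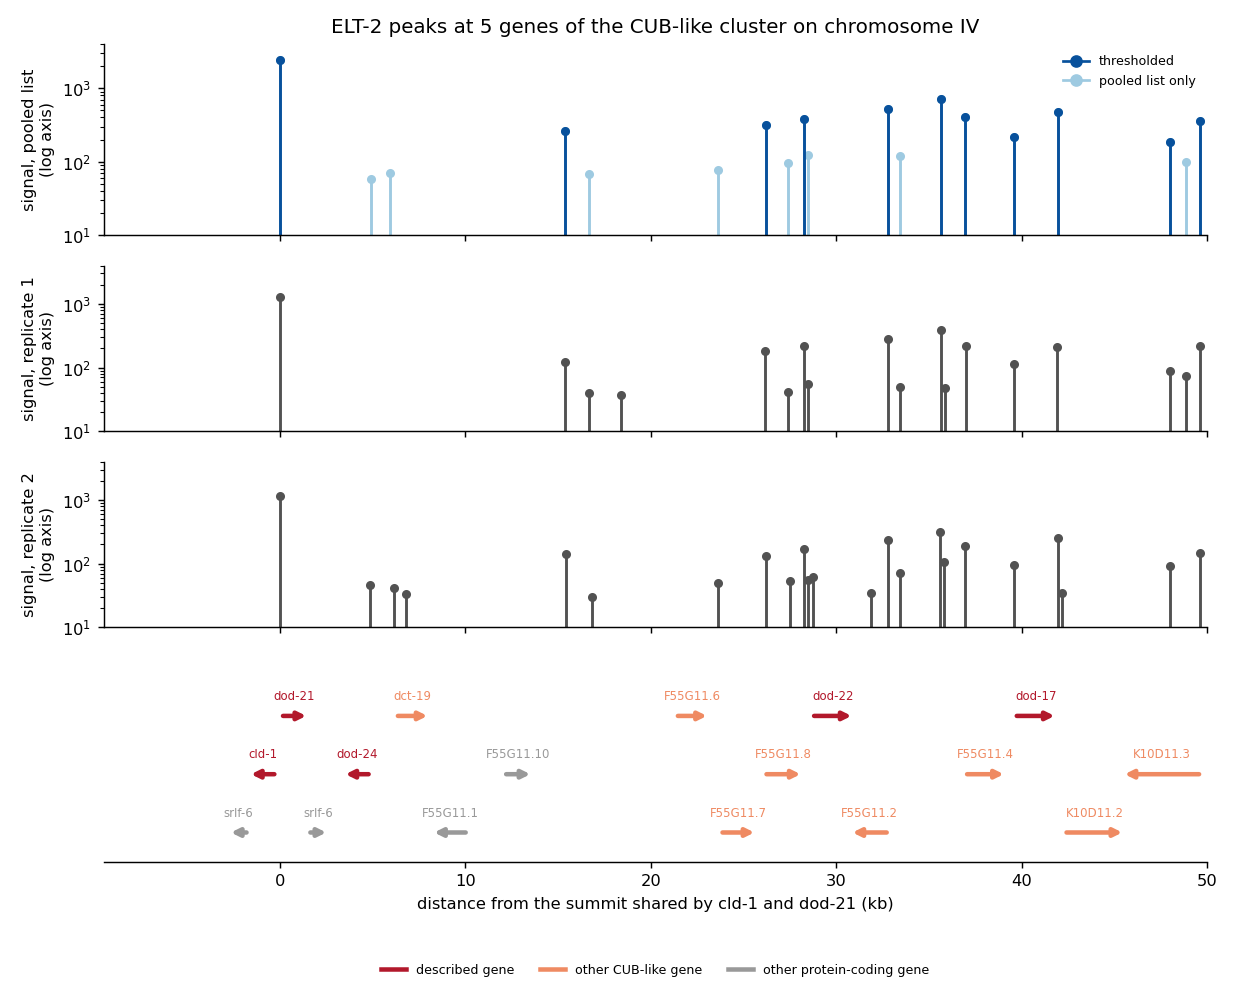
Peak signal by position along the run of CUB-like genes on chromosome IV, with distance in kb on the horizontal axis, signal on a log vertical axis in each list, and gene models as arrows below. The peak between cld-1 and dod-21 (signal 2427) stands above all others in the region, and dod-24 has only weak summits of the relaxed lists.

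irg-4, a gene induced by infection, had the next strongest peak. Its summit at IV 12435636, in a peak from 12435529 to 12435809, lay 197 bp upstream with a signal of 939 and rank 155. The replicates gave 475 (rank 209) and 446 (rank 111). No other thresholded summit lay within 5 kb, and the next was 15169 bp away. Its sequence, chrIV:12435536-12435736 on the plus strand, is shown by the rule for bound genes. All its hexamers lie on the minus strand, the strand opposite to those of the peak of cld-1 and dod-21.
irg-4: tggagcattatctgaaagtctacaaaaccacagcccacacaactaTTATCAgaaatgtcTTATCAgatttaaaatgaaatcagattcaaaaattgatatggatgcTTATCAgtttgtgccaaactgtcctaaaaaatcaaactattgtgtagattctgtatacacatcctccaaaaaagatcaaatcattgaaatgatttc
It holds 3 copies, starting at positions 46, 60 and 106, and the nearest begins 5 bp from the summit.

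dod-22 and dod-17 lie farther along the run, with 10929 bp between their 5′ ends. dod-22, at IV 12965374 to 12967392 on the plus strand, had a summit at 12964842, 532 bp upstream, with a signal of 381 and rank 1373. The replicates gave 216 (rank 1390) and 171 (rank 1308). dod-17, at IV 12976303 to 12978343 on the plus strand, had a summit at 12976141, 162 bp upstream, with a signal of 220.1 and rank 3257. The replicates gave 115 (rank 3694) and 96.6 (rank 3252). The dod-17 peak was the weakest among the bound genes in the thresholded list and in each replicate, and it was below the median of the thresholded list. Both sequences are shown by the rule for bound genes, chrIV:12964742-12964942 for dod-22 and chrIV:12976041-12976241 for dod-17. In each, the TGATAA nearest to the summit lies to its right.
dod-22: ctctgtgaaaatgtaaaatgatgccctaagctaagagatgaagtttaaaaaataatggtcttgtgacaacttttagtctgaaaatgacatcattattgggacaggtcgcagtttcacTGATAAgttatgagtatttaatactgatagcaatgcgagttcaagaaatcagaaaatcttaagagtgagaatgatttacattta
dod-17: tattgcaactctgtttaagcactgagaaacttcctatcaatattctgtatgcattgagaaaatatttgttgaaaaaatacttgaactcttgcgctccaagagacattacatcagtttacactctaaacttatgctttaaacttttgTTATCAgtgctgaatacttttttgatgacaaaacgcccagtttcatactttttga
The hexamer begins 17 bp to the right of the summit at dod-22, and 46 bp to the right at dod-17, where it is on the minus strand and runs past 50 bp.

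Another 5 peaks lay near dod-22 and dod-17, outside the promoters of both. A summit at 12972218 in intergenic sequence, 4085 bp upstream of dod-17 and 4826 bp past the end of dod-22, had a signal of 703 and rank 341. The replicates gave 383 (rank 385) and 313 (rank 336). The nearest 5′ end to it was that of F55G11.4, 1406 bp away. The CUB-like genes F55G11.2 and F55G11.4 had promoter summits 63 and 86 bp upstream with signals of 523 and 406. F55G11.8 had one 30 bp upstream (signal 316), and K10D11.2 one 472 bp upstream (signal 477). Each of these 5 peaks was within 5 kb of dod-22 or dod-17, and 4 of them had a higher signal than the promoter peaks of both.

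dod-23, the gene with no CUB-like annotation, had its summit at II 8400157, in a peak from 8399952 to 8400361, at the far edge of its promoter window. The distance to its 5′ end was 993 bp, the signal 410.1 and the rank 1224. The replicates gave 222 (rank 1322) and 188 (rank 1105). The 3′ end of skpo-1, a peroxidase gene, was 142 bp away. The sequence, chrII:8400057-8400257 on the plus strand, is shown by the rule for bound genes. Among the bound promoters, its nearest hexamer is the farthest from the summit.
dod-23: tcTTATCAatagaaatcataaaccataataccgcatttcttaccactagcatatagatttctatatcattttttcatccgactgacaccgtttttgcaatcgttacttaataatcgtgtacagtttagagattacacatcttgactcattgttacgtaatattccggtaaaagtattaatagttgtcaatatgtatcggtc
Its single TGATAA begins at position 3 and ends 93 bp to the left of the summit.

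irg-5, induced by infection and a common reporter gene of intestinal immunity, had no promoter summit in the thresholded, pooled or replicate 1 lists. Replicate 2 had summits 978 and 771 bp upstream, with signals of 26.9 and 26.1 and ranks of 17655 and 18662 of 18929. The nearest thresholded summit upstream was at V 13740077, 1603 bp from the 5′ end, with a signal of 324 and rank 1802. The replicates gave 170.2 (rank 2086) and 153 (rank 1591). Its sequence, chrV:13739977-13740177 on the plus strand, was chosen after its value was seen.
irg-5: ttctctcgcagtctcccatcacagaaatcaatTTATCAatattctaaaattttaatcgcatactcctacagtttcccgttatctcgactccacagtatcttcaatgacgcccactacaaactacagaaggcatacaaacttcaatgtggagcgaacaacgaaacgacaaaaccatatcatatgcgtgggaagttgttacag
The TGATAA at position 33 ends 63 bp to the left of the summit, and no TGATAA lies within 50 bp. Another GATA hexamer, AGATAA on the minus strand, not in capitals, ends 17 bp to the left of the summit. On the other side of irg-5, F35E12.6 had a promoter summit 145 bp upstream (signal 212), and an intergenic summit lay at 13733954 (signal 208). These were the only peaks of the 13 whose q-value did not reach the largest value of the list. All 4 CUB-like neighbours of irg-5 within 10 kb were bound, with signals of 418 for F35E12.9, 212 for F35E12.6, 184 for dct-17 and 149 for F35E12.10.

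**Figure D2:**
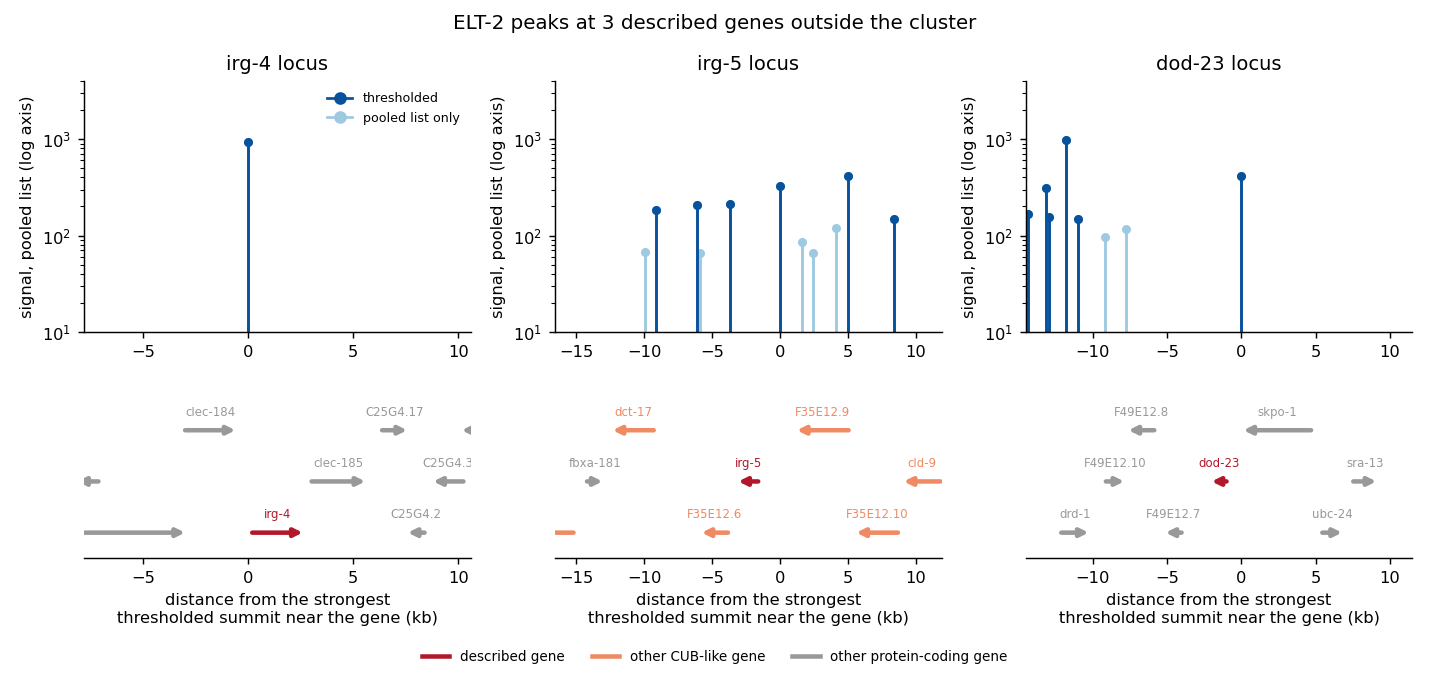
Peaks around irg-4, irg-5 and dod-23, with distance in kb from the strongest thresholded summit near the gene on the horizontal axis, pooled signal on a log vertical axis and genes as arrows below. irg-4 has a single peak in view (signal 939). The thresholded peaks around irg-5 lie in promoters of its CUB-like neighbours, in intergenic sequence past the end of F35E12.6 and 1603 bp upstream of irg-5.

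The thresholded list was derived from both replicates, so a summit in both is not separate evidence for its peaks. All 13 peaks had a summit of both replicates within 100 bp, as did 97.1% of thresholded peaks. All 13 were also within 100 bp of a summit among the 5443 strongest of each replicate, against 81.4% of thresholded peaks. By signal, 3 of the 13 were in the strongest 10% of the thresholded list, 7 in the strongest 25% and 3 below its median. As a percentage of list length, where a low value is a strong peak, the promoter peak of cld-1 and dod-21 ranked at 0.0640 in replicate 1 and 0.0528 in replicate 2. irg-4 ranked at 1.22 and 0.586, dod-23 at 7.70 and 5.84, dod-22 at 8.09 and 6.91 and dod-17 at 21.5 and 17.2. The order of the bound promoters was thus the same in both replicates. dod-22 and dod-23 were neighbours in that order, and the gap between them in each replicate was smaller than the change of either gene between replicates. In replicate 2, dod-24 ranked at 41.5 and irg-5 at 93.3.

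**Figure D3:**
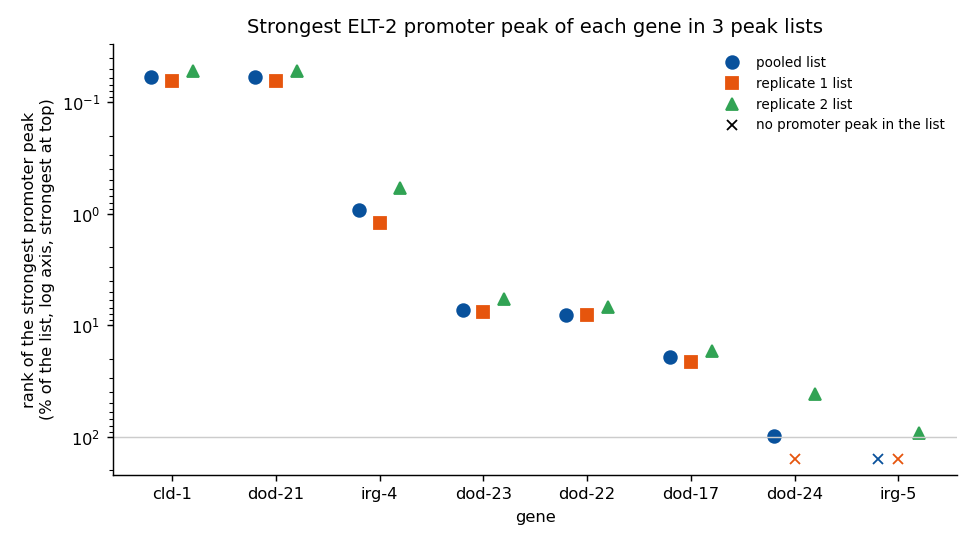
Rank of the strongest promoter peak as a percentage of list length (vertical log axis, strongest at the top) for each gene along the horizontal axis, in the pooled list and both replicates, with crosses where a list has no promoter peak. cld-1 and dod-21 share the peak near 0.06, and irg-5 has a promoter summit in replicate 2 only.

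A TGATAA that lay whole inside the window of 50 bp either side of the summit was found at 8 of the 13 peaks, against 45.0% of all thresholded peaks. Flanking windows, equally wide and moved 500 bp rightward, contained it at 1 of 13 and at 9.90% of all thresholded peaks, and those moved leftward at 4 of 13 and at 10.4% of all. Of the promoter peaks of described genes, those of irg-4, dod-22 and the pair cld-1 and dod-21 are among the 8. The others of the 8 are in promoters of F55G11.8, F55G11.2, F55G11.4, K10D11.2 and F35E12.6. The dod-23 peak is not among the 8, and nor is the dod-17 peak, since the dod-17 hexamer crosses the edge of the window. All counts below likewise take whole hexamers. Within 25 bp it was found in 6 of 13 (27.1% of thresholded peaks), within 100 bp in 12 of 13 (59.8%) and within 150 bp in 13 of 13 (65.6%). A wider set of 4 hexamers adds AGATAA, then also AGATAG and finally TGATAG. Any of the set lay within 50 bp in 10 of 13, against 57.7% of thresholded peaks and 20.3% of the windows moved rightward. At least 2 copies of TGATAA within 50 bp were found in 5 of 13 (15.8%), and at least 3 within 150 bp in 6 of 13 (13.2%). Of those 5, only the irg-4 peak is in the promoter of a described gene. Of those 6, the peaks of irg-4, dod-17 and the pair cld-1 and dod-21 are. Both strands were searched, and TGATAA is itself one of the 4 hexamers. A match describes the sequence and does not show which copy was bound.

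**Figure D4:**
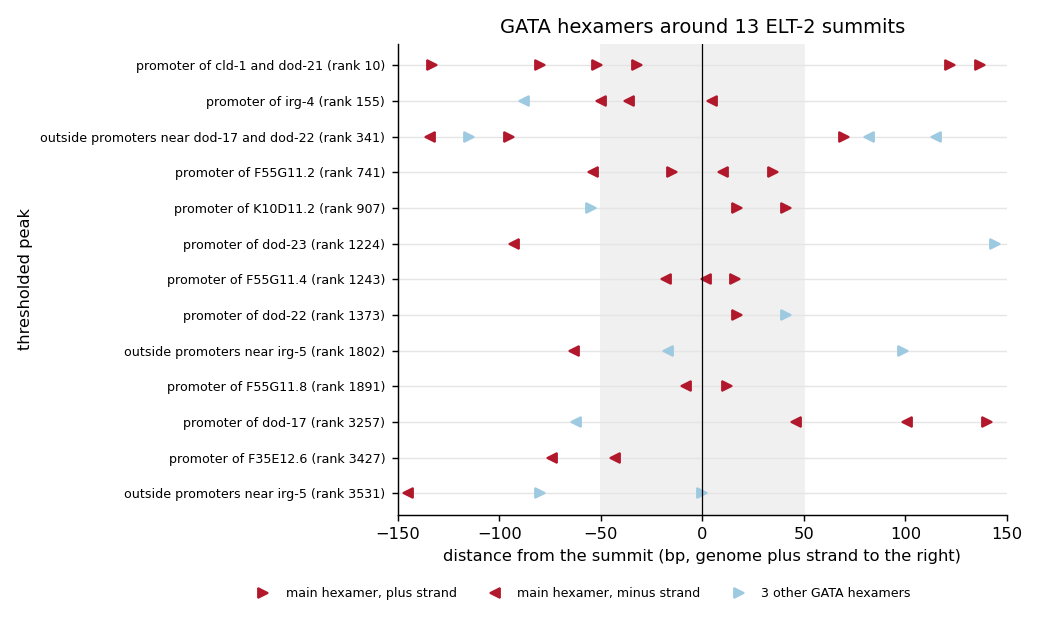
Position of each GATA hexamer relative to the summit in the 13 peaks, in bp, with 1 line per peak ordered by signal. Of the 13 peaks, 8 have a whole TGATAA inside the window of 50 bp either side, which the dod-17 hexamer overruns, and the peak of cld-1 and dod-21 has 6 copies within 150 bp.

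The count of TGATAA over the whole promoter window, here that of the most upstream 5′ end of each gene only, ran from 1 to 8. The windows of cld-1 and dod-21, which overlap, held 8 copies each (0.0801% of protein-coding promoters have as many). irg-4 held 6 (0.831% of promoters have as many). dod-22 and dod-17 held 3 each, a number reached by 17.9% of promoters. dod-24 and dod-23 held 2 each (39.6%) and irg-5 held 1 (72.0%). The median over all promoters was 1 and over bound promoters 2. dod-24 and dod-23 had equal counts of TGATAA. Of these, dod-23 was bound, by a summit 993 bp upstream at the edge of its window, and dod-24 was not.

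The run on chromosome IV is 43.3 kb long and holds 14 protein-coding genes, of which 11 are CUB-like and 6 of these are not among the described genes. Of the 14, 7 were bound, and all 7 are CUB-like. Unbound there were dod-24, dct-19, F55G11.6 and F55G11.7, which are CUB-like, and srlf-6, F55G11.1 and F55G11.10, which are not. This srlf-6 and its promoter lie inside the right arm of the inverted repeat, where no list had a summit. Whether the repeat hides a peak there was not tested. The run held 8 thresholded peaks, or 1.85 per 10 kb, where the nuclear genome held 0.543 and chromosome IV 0.474. Since the run was bounded by genes chosen with their peaks known, its density is a description. The peaks were spread unevenly, with 15363 bp between the summit of cld-1 and dod-21 and the next at 12951926 (signal 263), and 10852 bp to the one after.

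Among the other 42 CUB-like genes, 25 were bound, 59.5% (95% Wilson interval 44.5 to 73.0). The strongest peaks of these lay at C29F3.7 (signal 1066, 11 bp upstream), ZK1037.6 (607), C32H11.4 (588) and K08D8.6 (553), and the unbound genes first in the alphabet were C17H12.6 and C32H11.3. Of the 49 CUB-like genes matched in all, 32 are on chromosome IV, 19 of them bound, 16 on V, 11 bound, and 1 on X, not bound. Within 10 kb of the described genes, 10 of 13 other CUB-like genes were bound (76.9%, interval 49.7 to 91.8) and 2 of 21 other protein-coding genes (9.52%, interval 2.65 to 28.9). Those 2 were drd-1 (signal 985) and ugt-65 (signal 511), a UDP-glucuronosyltransferase gene. The 13 CUB-like neighbours also stand among the 42, and all lie at the run on chromosome IV or near irg-5. In contrast, drd-1 lies near dod-23 and ugt-65 near irg-4, where no neighbour is CUB-like. Most of the 21 lie near those genes, so the shares largely compare different loci. Those of the 21 at or near the run or near irg-5 were srlf-5, the genes annotated srlf-6, F55G11.1, F55G11.10 and fbxa-181. None of them was bound. The genes annotated srlf-6, counted among the 21, lie with their promoters inside the arms of the inverted repeat, where no summit was called. Neighbours can share a promoter peak, and no test was made.

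Genes with the same name stems were also counted, of which irg-6 and cld-9 are CUB-like and stand among the 42 above as well. Of 5 other dod genes, 3 were bound, led by dod-3 (signal 1014, 151 bp upstream) and dod-19 (signal 306), while dod-6 and dod-18 were not. Of 6 other irg genes, 4 were bound, irg-8, irg-7, irg-1 and irg-3, with signals of 231, 222, 211 and 190.3 in that order, all below the median of the thresholded list, and irg-2 and irg-6 were not. The other cld gene, cld-9, was bound (signal 222). A list of 16 immune effector and response genes, which also holds irg-1, irg-2, irg-3 and irg-6, had 8 bound (50%, interval 28.0 to 72.0), the strongest at clec-67, a C-type lectin gene (signal 735), spp-3 and spp-1, saposin-like genes (698 and 479), and lys-2, a lysozyme gene (387). abf-2 and clec-60 were the unbound ones first in the alphabet. Intervals cover counting error only. They treat genes as independent, although many CUB-like genes lie side by side, so they may be too narrow. They are no test against the share of all genes.

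**Figure D5:**
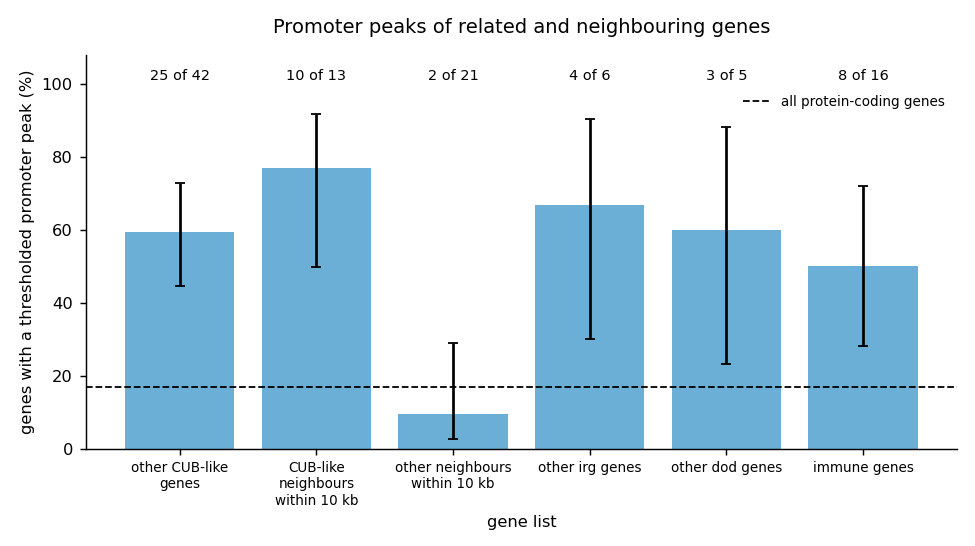
Share of genes with a thresholded promoter summit, in percent, with 95% Wilson intervals as bars, for the other CUB-like genes, neighbours within 10 kb, other dod and irg genes and the immune list, and the share of all protein-coding genes (17.0%) as a line. CUB-like neighbours, also counted among the other CUB-like genes, were bound in 10 of 13 cases. Neighbours that are not CUB-like, most of them near irg-4 or dod-23 where no neighbour is CUB-like, were bound in 2 of 21. The intervals treat genes as independent and are no test.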

How the data were processed

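Peak lists of ELT-2 ChIP-seq from 2 biological replicates, 1 group, were analysed. Per the labels and the accompanying notes, the authors made a relaxed list for each replicate and for the pooled replicates, and a thresholded list by the irreproducible discovery rate procedure. The aligner, the peak caller and its threshold: not given in the sources used here. Each deposited list gives a signal per peak and a −log10 q-value, the authors' own values, used only to rank and describe peaks. The files hold no counts, so depth is unknown and no interval was drawn for a signal. Lists on ce10 were not used here.

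Coordinates are 1-based on ce11 (WBcel235). Genes and 5′ ends came from Ensembl release 115, sequence and product names from RefSeq. Of 50 loci with CUB-like products, 49 matched the annotation, and 16 of 16 genes of the immune list matched. The genes and lists were chosen with earlier results of these data known, and the rule took all 8 genes, the neighbours with a peak, up to 4 bound genes of each list with the strongest signal, and up to 2 unbound genes first in the alphabet. Some further genes were named after their values were seen. Background shares were computed over all 19973 protein-coding genes or all 5443 thresholded peaks. Other distances, promoter windows, motif windows, a stronger part of the list, and each replicate alone (its 5443 strongest peaks) were tried. Repeated words of 50 bases and the inverted repeat were added after the data were seen. Programs were tested on simulated data. Intervals were computed with SciPy 1.17.1, tables with pandas 2.3.3 and NumPy 2.4.6, and plots with matplotlib 3.10.9, under Python 3.11.15.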

Additional observations from a re-analysis of the deposited data

How the results depend on the processing

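All 8 genes kept a summit with 10000 bp in place of 5000 bp (63.1% of all genes), with the stronger 50% of the list (28.2%) and without replicate 1 (44.9%) or replicate 2 (45.8%), and 7 did with 2000 bp (30.5%). The number of peaks near them was 13, rose to 20 with 10000 bp, and ran from 13 to 15 with a replicate left out. The number of bound genes was 6, with 4 for a promoter of 500 and 100 bp (13.2% of all genes), which loses dod-22 and dod-23, 7 for 3000 and 500 bp (25.2%), which adds irg-5, and 5 in the stronger part (8.86%), which loses dod-17. It stayed at 6 without replicate 1 (16.5%) or replicate 2 (17.0%). Of the 13 peaks, 8 had TGATAA within 50 bp, and 9 of the same 13 did at the summits without replicate 1 (44.8% of thresholded peaks) or without replicate 2 (45.2%). The median percentage rank of the strongest peak near each gene was 1.47 in the pooled list, from 1.18 to 1.73 in the list of 1 replicate, and 4.56 in the thresholded list, a choice added after the data were seen, which is shorter and holds only the stronger peaks. In these medians cld-1, dod-21 and dod-24 counted the same peak, as did dod-17 and dod-22, so the values of the 8 genes are not separate. No paired analysis was possible because there is 1 group and no test. The q-value is at its largest in 3415 thresholded peaks and cannot order those. Depth limits are unknown without counts, so a missing summit means that none was called in that list.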
